A study of Mus musculus with 8 samples.

Results

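The mitochondrial chromosome of the mouse carries the genes examined here, the 37 rows of the deposited table whose gene name starts with mt-, out of 55401 rows in all. The name is the whole rule, and no measured value enters it. The rows comprise 13 protein genes, 2 ribosomal RNA (rRNA) genes and 22 transfer RNA (tRNA) genes. The table holds 8 RNA-seq libraries from kidney of diabetic mice, taken as 1 per mouse from their numbers. No label states that each is a separate animal, so p-values measure only the spread between these libraries. Of these, 4 mice had received recombinant fibroblast growth factor 4 (rFGF4, mice 1, 2, 3 and 5) and 4 were the db/db model controls (called vehicle, mice 2, 3, 4 and 5). The labels give db/db as the genotype of the model, a line that lacks a working leptin receptor and becomes obese and diabetic. If that holds for every library, treated and control mice share it. The text of the study describes the sequenced kidneys differently, as coming from streptozotocin-treated mice given rFGF4 or phosphate-buffered saline, and the labels do not settle which model was sequenced. Dose, length of treatment, age, strain background and sex of the sequenced mice are not given in the labels used here, and there was no non-diabetic group. No label states whether the same mouse number in the treated and control groups marks a pair, and the groups were compared without pairing.

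Mitochondrial DNA encodes core subunits of the respiratory chain and of ATP synthase, together with the rRNAs and tRNAs that translate them inside the organelle. Transcription runs around the circle as long precursors from each strand, and the tRNAs that lie between the other genes are cut out to release the mature RNAs. Kidney tubule cells, above all those of the proximal tubule, are packed with mitochondria because reabsorption of solutes consumes much ATP.

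Levels are given as FPKM (fragments scaled to transcript length and to the mapped fragments of the library), which the authors deposited, in the order of mice 1, 2, 3 and 5 for rFGF4 and 2, 3, 4 and 5 for vehicle. A log2 fold change is the difference of group means of log2(FPKM + 1), rFGF4 minus vehicle, from a limma fit over the 15150 genes with at least 0.5 FPKM in at least 4 libraries, and it is followed by its standard error (SE). Of the 37 mitochondrial genes, 35 entered the fit, and mt-Tv and mt-Ts2 were too low. The threshold taken over from the study asks for an unadjusted p below 0.05 and a ratio of 1.5 or more, or of 0.67 or less. FPKM divides by the mapped fragments of each library, so a group of genes this abundant changes the level of every other gene. In whole tissue, fewer cells of a type and less RNA per cell cannot be told apart.

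The sequences below, read from the GENCODE M21 annotation (GRCm38), are those of tRNA genes chosen by their values. mt-Tr and mt-Tt had the lowest tRNA fold changes, and the neighbours mt-Ta and mt-Tn lay near 0. The difference between these pairs was not tested. Each is the tRNA gene from first to last base, 5′ to 3′, on its own strand.
mt-Tr, forward strand, chrM:9808-9875: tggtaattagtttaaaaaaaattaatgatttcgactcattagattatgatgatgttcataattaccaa
mt-Tt, forward strand, chrM:15289-15355: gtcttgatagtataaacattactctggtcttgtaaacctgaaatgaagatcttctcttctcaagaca
mt-Ta, reverse strand, chrM:5018-5086: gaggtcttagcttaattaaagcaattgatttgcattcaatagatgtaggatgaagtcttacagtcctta
mt-Tn, reverse strand, chrM:5089-5159: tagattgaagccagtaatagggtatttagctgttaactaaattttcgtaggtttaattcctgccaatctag
The genes are 67 to 71 bases long, within the 59 to 75 bases of all 22 tRNA genes. mt-Tr (arginine) sits between mt-Nd3 and mt-Nd4l, mt-Tt (threonine) between mt-Cytb and mt-Tp, and mt-Ta (alanine) and mt-Tn (asparagine) next to each other on the strand opposite to most protein genes. Library inserts averaged more than the length of any tRNA gene and the RNA was selected for poly(A) tails, so a level over a tRNA gene need not be that of the mature tRNA.

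Mitochondrial transcripts were abundant in every kidney. The 37 genes held 19.0, 24.7, 29.8 and 36.0% of the summed FPKM in the rFGF4 mice, a mean of 27.4 ± 7.25% (SD, n = 4). In the vehicle mice they held 38.4, 34.2, 37.2 and 24.4%, a mean of 33.5 ± 6.33% (SD, n = 4). The lowest share was that of rFGF4 mouse 1, the highest that of vehicle mouse 2, and the groups overlapped, with vehicle mouse 5 below rFGF4 mice 2, 3 and 5, and vehicle mouse 3 below rFGF4 mouse 5. The difference in means, -6.17 percentage points, was smaller than the SD of the rFGF4 group. Without rFGF4 mouse 1 the difference was -3.36 points, and without vehicle mouse 5 it was -9.20 points. Taken over protein-coding genes alone, the shares were 34.0 ± 9.70% and 43.6 ± 7.09%, a difference of -9.55 points. Protein genes made up nearly all of it, with 18.4 to 37.4% of the summed FPKM, against 0.441 to 0.782% for tRNA genes and 0.137 to 0.312% for rRNA genes.

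**Figure D1:**
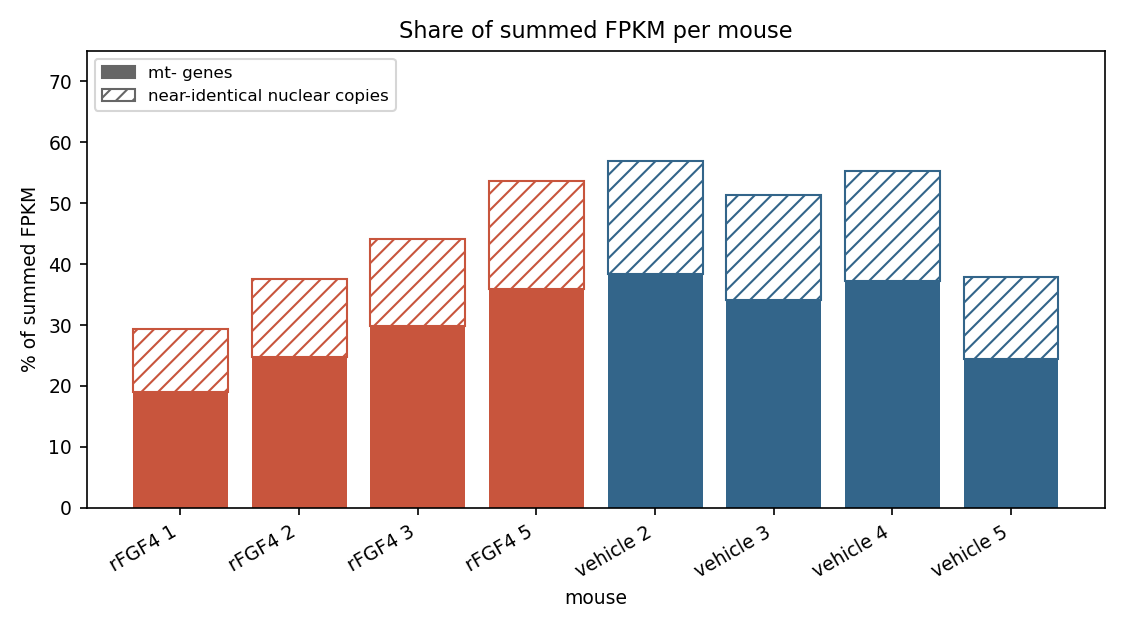
Percent of each library's summed FPKM (y axis, from 0) held by the 37 mt- genes (filled) and by 7 near-identical nuclear copies (hatched), 1 bar per mouse. rFGF4 bars are red and vehicle bars blue. The filled part is smallest in rFGF4 mouse 1, at 19.0%, and largest in vehicle mouse 2, at 38.4%, and the groups overlap.

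The means of all 13 protein genes were lower with rFGF4, but only mt-Nd3 passed the threshold. All 13 had a log2 fold change below 0, from -0.71 (mt-Nd3) to -0.39 (mt-Co1) with a median of -0.55, while 32.9% of all tested genes lay below 0 and the median of all tested genes was 0.09. That share of all genes depended on the scaling, at 22.3% when scaled to nuclear-encoded FPKM and 47.1% with median-ratio scaling, and on rFGF4 mouse 1, without which it was 47.8%. Without that mouse the median of the 13 was -0.36, their values ran from -0.54 to 0.21, and 12 were below 0. These are not 13 separate measurements, since the genes share precursors and each library's scaling. With the same fit, 3 members passed the study's threshold, all lower with rFGF4: mt-Nd3, mt-Tr and mt-Tt. The background of that threshold was 0.442% of tested genes lower and 1.09% higher, and no member passed it as higher. After Benjamini-Hochberg adjustment over the 15150 genes no member passed 0.05 (background 0%), and the smallest adjusted p among members was 0.918 in limma. At an unadjusted p under 0.05 limma gave 3 members and 700 genes. No member had groups that did not overlap (3.33% of all tested genes did), and the exact permutation test of single members gave p of 0.0571 or more, where the smallest possible is 0.0286.

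**Figure D2:**
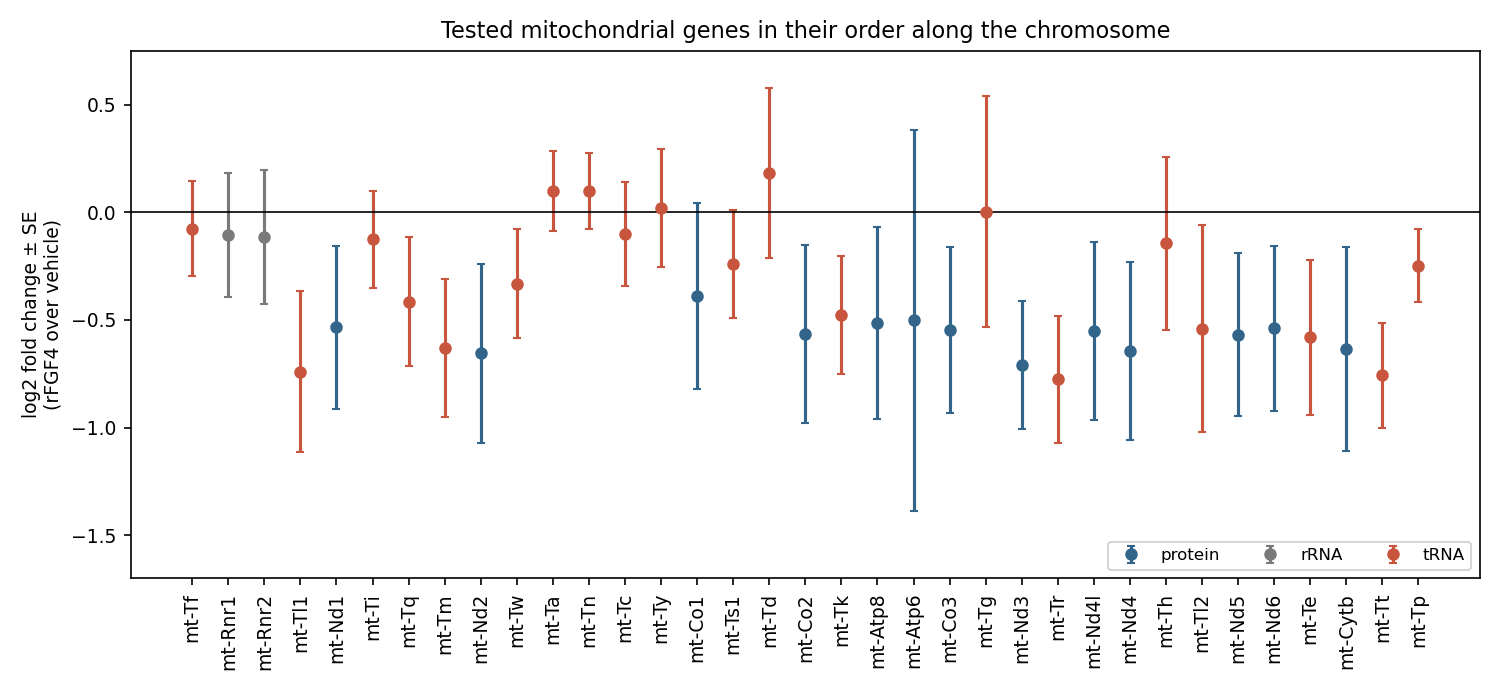
log2 fold change of FPKM (rFGF4 over vehicle, y axis) with its SE for the 35 tested mitochondrial genes, ordered along the chromosome (x axis) and coloured by class (protein blue, rRNA grey, tRNA red). All 13 protein genes lie below 0, mt-Atp6 has the longest error bar, and mt-Nd3, mt-Tr and mt-Tt are the 3 that passed the study's threshold.

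Complex I (NADH dehydrogenase), the entry point of electrons from NADH, takes 7 of its core subunits from mitochondrial DNA. Their fold changes were from -0.71 to -0.53, with a median of -0.57. mt-Nd3, a small subunit of the membrane arm, measured 1273, 1733, 1842 and 2669 FPKM in the rFGF4 mice and 3211, 3734, 3015 and 2149 in the vehicle mice. Mice 1, 2 and 3 of the rFGF4 group were below all vehicle mice, and rFGF4 mouse 5 was above vehicle mouse 5. The log2 fold change was -0.71 (SE 0.30, limma p = 0.0433, exact permutation p = 0.0571, adjusted p = 0.918), and the call was lost in 12 of the alternatives run, among them each scaling, though the value stayed between -0.90 and -0.53.

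mt-Nd1, the subunit next to the quinone-binding region, measured 8741, 9811, 11542 and 15981 FPKM with rFGF4 and 19508, 17108, 17405 and 12002 with vehicle. Again rFGF4 mice 1, 2 and 3 lay below every vehicle mouse and mouse 5 did not (log2 fold change -0.53, SE 0.38, exact permutation p = 0.0571). The membrane-arm subunits mt-Nd2, mt-Nd4 and mt-Nd5 resemble ion transporters. mt-Nd2 had 4953, 6843, 9865 and 11981 FPKM with rFGF4 and 15406, 14402, 13635 and 8132 with vehicle. mt-Nd4 had 4119.9, 6147, 8268 and 11474 FPKM with rFGF4 against 12592, 11923, 12604 and 7568 with vehicle. For mt-Nd5 the values were 1765, 2301, 3628 and 4658 against 5505, 3884, 5131 and 3022. In each of these, rFGF4 mice 1 and 2 were below all vehicle mice and the rest were mixed in among them.

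mt-Nd4l, a small membrane subunit whose gene shares 7 bases with mt-Nd4, had 1892, 2731, 4489 and 5586 FPKM with rFGF4 and 6375, 4623, 6124 and 3330.4 with vehicle. mt-Nd6 is the protein gene read from the opposite strand to the other 12. It measured 3892, 4918, 6652 and 9481 FPKM in the rFGF4 mice and 10321, 8769, 10010.1 and 5941 in the vehicle mice, with rFGF4 mice 1 and 2 lowest. Its log2 fold change, -0.54 (SE 0.38), lay within the -0.71 to -0.39 of the others. The ratio of mt-Nd6 to mt-Nd5, whose 3′ ends share 14 bases on opposite strands, was 2.05 ± 0.162 with rFGF4 and 2.01 ± 0.169 with vehicle (SD, n = 4 each), so the difference was within the spread. The sources do not say whether the libraries kept the strand, and without strand, reads from overlapping genes on opposite strands cannot be told apart.

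Complex III (cytochrome bc1), which passes electrons from ubiquinol to cytochrome c, has 1 mitochondrial subunit. mt-Cytb measured 8259, 12251, 16751 and 24678 FPKM with rFGF4 and 26142, 24205, 24983 and 15390.3 with vehicle. Values of rFGF4 mice 1 and 2 were below the lowest vehicle mouse, and rFGF4 mouse 5 was above vehicle mice 3 and 5. Its log2 fold change was -0.63 (SE 0.47, limma p = 0.215, exact permutation p = 0.2), and -0.37 without rFGF4 mouse 1.

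Complex IV (cytochrome c oxidase), which reduces oxygen, has its catalytic core encoded by mt-Co1, mt-Co2 and mt-Co3. mt-Co1, the haem-bearing subunit, had 12987, 17806, 20836 and 27549 FPKM with rFGF4 and 29223, 24126, 28201 and 19636 with vehicle, the highest mean of the 37. It also had the smallest fold change of the protein genes, -0.39 (SE 0.43), and -0.20 without rFGF4 mouse 1. mt-Co2, which receives electrons from cytochrome c, had 9220.5, 11376, 13775 and 20355 FPKM with rFGF4 and 22233, 21004, 21586 and 14002 with vehicle. mt-Co3 had 7034, 9685, 10922 and 15478 FPKM with rFGF4 against 16918, 16638, 16472 and 11385 with vehicle. For mt-Co2 and mt-Co3, rFGF4 mice 1, 2 and 3 were below every vehicle mouse, and the exact permutation p was 0.0571 for each, with log2 fold changes of -0.57 (SE 0.41) and -0.55 (SE 0.39).

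Complex V (ATP synthase) has mt-Atp8 and mt-Atp6, which are part of its membrane-embedded proton path. mt-Atp8 measured 5219, 7180.1, 11038 and 14550.3 FPKM with rFGF4 and 16377, 11902, 15510 and 8281 with vehicle, so that rFGF4 mice 1 and 2 were lowest. mt-Atp6 measured 2148, 11393, 14662 and 21279.9 FPKM with rFGF4 and 23036, 17932, 21571 and 3444 with vehicle. Here rFGF4 mouse 1 and vehicle mouse 5 stood far below the other 6 mice, 1 in each group, and its log2 fold change of -0.50 had an SE of 0.88, the widest of the class. Without rFGF4 mouse 1 the mt-Atp6 value was 0.21, and without vehicle mouse 5 it was -1.15.

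The mt-Atp8 and mt-Atp6 genes overlap by 43 bases on the same strand. The shared stretch is printed because mt-Atp6 and mt-Atp8 gave different values in the same mice, with the start codon of mt-Atp6 in capitals.
mt-Atp8 and mt-Atp6 overlap, forward strand, chrM:7927-7969: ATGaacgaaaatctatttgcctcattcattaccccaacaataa
The ratio of mt-Atp6 to mt-Atp8 was 0.412 in rFGF4 mouse 1 and 0.416 in vehicle mouse 5, and 1.33 to 1.59 in the other 6. Against mt-Co2 the ratio was 0.233 and 0.246 in those mice and 0.854 to 1.06 in the others. The nuclear copy of mt-Atp6, Gm10925, was not as far from its level in the other mice, with 8566, 12210, 15568 and 21704 FPKM in the rFGF4 mice and 24239, 20547, 22708 and 13591 in the vehicle mice. Copy and member added together had 10714, 23603, 30229.5 and 42984 FPKM with rFGF4 and 47276, 38479, 44279.8 and 17035 with vehicle, so rFGF4 mouse 1 was still lowest.

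**Figure D3:**
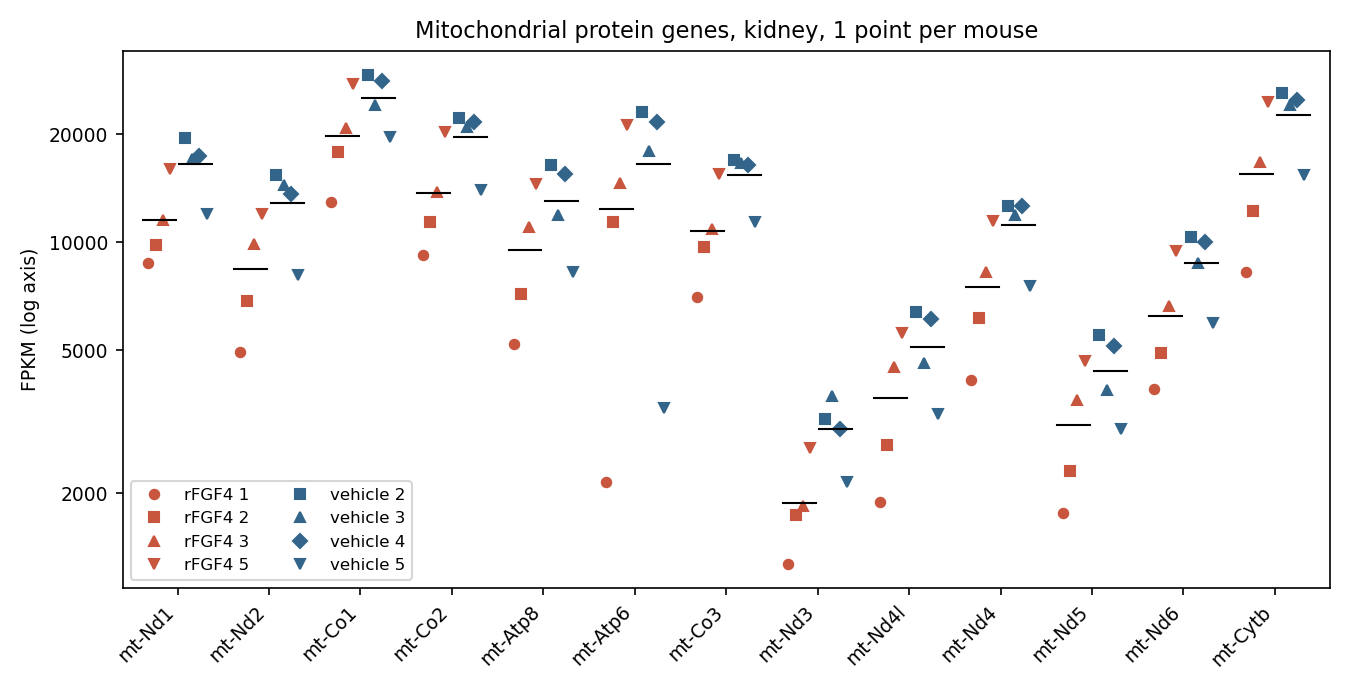
FPKM (log axis) of the 13 mitochondrial protein genes in each mouse, ordered along the chromosome. Points are mice (rFGF4 red, vehicle blue, shape by mouse number) and the short black lines are group means. rFGF4 mouse 1 is lowest in every gene, and for mt-Atp6 it and vehicle mouse 5 lie far below the rest.

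The mice differed from each other in much the same way at most protein genes. Relative to the mean of the vehicle mice on the log2 scale, the median over the 13 genes was -1.27, -0.80, -0.36 and 0.13 in the rFGF4 mice and 0.26, 0.12, 0.17 and -0.53 in the vehicle mice. rFGF4 mouse 1 was lowest, mice 1 and 2 lay below every vehicle mouse, and rFGF4 mouse 5 was near vehicle mice 3 and 4. Leaving out mt-Atp6, the 12 other genes of 1 mouse spanned 0.27 to 0.55 on that scale. By mean FPKM over the 8 libraries the order of levels was mt-Co1, mt-Cytb, mt-Co2, mt-Atp6, mt-Nd1, mt-Co3, mt-Atp8, mt-Nd2, mt-Nd4, mt-Nd6, mt-Nd4l, mt-Nd5 and mt-Nd3. The last 3 held their places in all 8 libraries, whereas mt-Cytb ranked from 1 to 4 and mt-Atp6 from 3 to 10.

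Both rRNA genes, the RNA of the small (mt-Rnr1) and large (mt-Rnr2) subunit of the mitochondrial ribosome, had overlapping groups. mt-Rnr1 measured 348, 708, 453 and 592 FPKM with rFGF4 and 383, 657, 722 and 487 with vehicle. mt-Rnr2 measured 253, 652, 413 and 519 FPKM with rFGF4 and 373, 544, 606 and 395 with vehicle. In each, rFGF4 mouse 1 was lowest and vehicle mouse 2 next lowest in mt-Rnr1 and mt-Rnr2 alike. The log2 fold changes were -0.10 (SE 0.29) and -0.11 (SE 0.31), less than their standard errors. Scaled to nuclear-encoded FPKM, copies included, they were -0.01 each, and -0.12 and -0.13 with the copies left out of that sum. With median-ratio scaling they were -0.20 and -0.21. With single mice left out they ran from -0.27 to 0.08 for mt-Rnr1 and from -0.31 to 0.14 for mt-Rnr2. Per 100 FPKM of protein genes, rRNA genes had 0.841, 1.31, 0.645 and 0.598 FPKM in the rFGF4 mice and 0.366, 0.667, 0.677 and 0.772 in the vehicle mice, with rFGF4 mouse 2 highest and vehicle mouse 2 lowest. Poly(A) selection leaves most rRNA behind, so these levels are not the ratio of rRNA to mRNA in the tissue.

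Of the 22 tRNA genes, 20 were tested, 15 had a log2 fold change below 0, and the median was -0.24. Of all tested genes, 32.9% were below 0, or 47.1% with median-ratio scaling. Split by strand, 10 of 12 on the forward strand were below 0 (median -0.40) and 5 of 8 on the reverse strand were (median -0.17). The difference between strands was not tested. 2 tRNA genes passed the study's threshold, both lower with rFGF4 (background 0.442%) and both on the forward strand. mt-Tr, the first sequence shown, had 2.24, 3.95, 5.20 and 8.07 FPKM with rFGF4 and 10.6, 7.90, 8.43 and 6.97 with vehicle. rFGF4 mice 1, 2 and 3 lay below all vehicle mice, while mouse 5 was above vehicle mice 3 and 5. Its log2 fold change was -0.78 (SE 0.30, limma p = 0.0297, exact permutation p = 0.0857, adjusted p = 0.918). The call was lost when any 1 of 5 mice was left out (rFGF4 1 or 2, vehicle 2, 3 or 4), though the value stayed between -1.02 and -0.52 with each mouse left out.

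mt-Tt had 2.17, 2.14, 2.77 and 4.18 FPKM with rFGF4 and 6.81, 6.61, 5.26 and 3.27 with vehicle. Mice 1, 2 and 3 of the rFGF4 group again lay below every vehicle mouse. Its log2 fold change was -0.76 (SE 0.24, limma p = 0.0137, exact permutation p = 0.0571, adjusted p = 0.918). It was from -0.95 to -0.66 when single mice were left out, and it passed the threshold each time. With mouse number as a replicate block the calls of both mt-Tt (-0.68) and mt-Tr (-0.52) were lost. These genes are low, at a few FPKM, so a pseudocount of 1 shrinks their fold change.

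The 6 tRNA genes with the highest mean level were mt-Te, mt-Tp, mt-Tl1, mt-Tm, mt-Tn and mt-Ts1. mt-Te (glutamate), which borders mt-Nd6 on the same strand, had 948, 1163, 1591 and 2457 FPKM with rFGF4 and 2739.5, 2256, 2533 and 1380.4 with vehicle. Its ratio to mt-Nd6 was 0.232 to 0.265 in all 8 mice, and its log2 fold change was -0.58 (SE 0.36). It was -0.38 without rFGF4 mouse 1 and -0.84, past the study's threshold, without rFGF4 mouse 5. mt-Tl1 (leucine), between mt-Rnr2 and mt-Nd1, had 113, 113, 192 and 236 FPKM with rFGF4 and 493, 248, 208 and 178 with vehicle, where vehicle mouse 2 was far above the other 7. Its log2 fold change was -0.74 (SE 0.37, limma p = 0.0809, exact permutation p = 0.171), and -0.43 without vehicle mouse 2. It passed the study's threshold without rFGF4 mouse 5 (-0.94) or vehicle mouse 5 (-0.92).

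mt-Tm (methionine) had 47.6, 72.4, 115 and 136 FPKM with rFGF4 and 163, 142, 127 and 107 with vehicle, with rFGF4 mice 1 and 2 lowest (log2 fold change -0.63, SE 0.32). Its value was -0.35 without rFGF4 mouse 1 and -0.85, past the study's threshold, without rFGF4 mouse 5. mt-Tp (proline) had 299, 334, 355 and 393 FPKM with rFGF4 and 412, 445, 470 and 323 with vehicle, a narrow range across mice (log2 fold change -0.25, SE 0.17). mt-Ts1 (serine) had 47.6, 59.2, 59.3 and 96.0 FPKM with rFGF4 against 97.3, 79.9, 75.3 and 53.9 with vehicle, and the groups overlapped (log2 fold change -0.24, and -0.11 without rFGF4 mouse 1). mt-Tn, the last of the tRNA sequences shown, had 66.4, 75.4, 61.5 and 99.2 FPKM with rFGF4 and 77.8, 57.3, 71.6 and 72.7 with vehicle, the highest value being that of rFGF4 mouse 5. Its log2 fold change was 0.10 (SE 0.18), and that of its neighbour mt-Ta was 0.10 (SE 0.19), and both were at -0.04 without rFGF4 mouse 5. The other tRNA genes above 0 were mt-Td (0.18), mt-Ty (0.02) and mt-Tg (0.00, SE 0.54), and with median-ratio scaling mt-Ty and mt-Tg were below 0 (-0.08 and -0.07). tRNA genes together had 1.95 to 2.40 FPKM per 100 FPKM of protein genes, highest in rFGF4 mouse 1.

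Mitochondrial sequence also lies in the nuclear genome as pseudogenes, and 7 of these in the table are near-identical to a mitochondrial gene, all of them in the same stretch of chromosome 1 (GRCm38, 24611535 to 24616197, reverse strand). They are Gm28439 (a copy of part of mt-Nd4), Gm10222 (mt-Nd4l), Gm28438 (mt-Nd3), Gm28437 (mt-Co3), Gm10925 (mt-Atp6), Gm28661 (mt-Co2) and Gm29216 (part of mt-Co1). Over the aligned bases 5 of the 7 had 0 differences, Gm28438 had 1 in 345 and Gm29216 had 6 in 492. How the authors assigned fragments that match both a gene and its copy is not given in the sources used here. The values of mt-Nd4, mt-Nd4l, mt-Nd3, mt-Co3, mt-Atp6, mt-Co2 and mt-Co1 are therefore uncertain. The copy's FPKM divided by that of the member was 0.947 to 1.02 in every mouse for mt-Nd4l, mt-Nd3, mt-Co3 and mt-Co2. The ratio was 0.359 to 0.443 for Gm28439 and 0.775 to 0.929 for Gm29216, each of which covers only a part of its gene.

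The window with most differences is shown, with the bases of the copy that differ from mt-Co1 in capitals.
mt-Co1, forward strand, chrM:6381-6440: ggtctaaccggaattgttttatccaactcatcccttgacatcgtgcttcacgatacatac
Gm29216, reverse strand, chr1:24616138-24616197: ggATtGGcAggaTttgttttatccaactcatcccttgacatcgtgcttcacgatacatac
All 6 differences lie at the left end of this window of 60 bases, which is the 5′ end of the annotated copy, and the rest of the window is identical. With the copies added, the mitochondrial share was 29.4, 37.6, 44.2 and 53.6% in the rFGF4 mice and 56.9, 51.4, 55.2 and 37.8% in the vehicle mice, in the same order of mice as before except that vehicle mouse 5 now lay above rFGF4 mouse 2. The fold changes of the 13 protein genes were then from -0.72 to -0.40, all below 0. Less similar copies on chromosome 2 (Gm13341, Gm13340 and Gm13339) had at most 333 FPKM. Gm13341, a diverged copy of mt-Co2, passed the study's threshold as lower with rFGF4, at 36.4, 75.1, 40.9 and 213 FPKM against 218, 234, 333 and 175 with vehicle (log2 fold change -1.72, SE 0.52, limma p = 0.0106, exact permutation p = 0.0571). Gm28438 passed it as well (-0.72, SE 0.30, limma p = 0.0421, exact permutation p = 0.0571), with values almost equal to those of mt-Nd3.

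**Figure D4:**
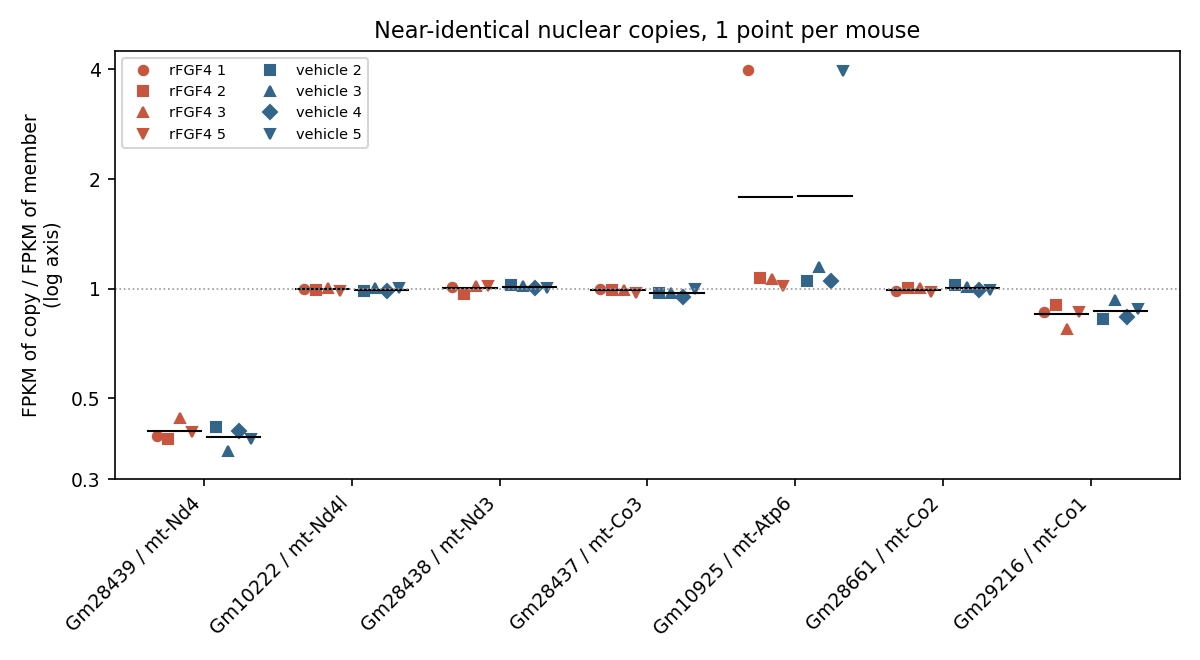
FPKM of each near-identical nuclear copy divided by FPKM of its mitochondrial gene (log axis), 1 point per mouse (rFGF4 red, vehicle blue, shape by mouse number), with group means as black lines and a dotted line at 1. Copies of whole genes sit at 1, except Gm10925 over mt-Atp6, which reaches 3.99 in rFGF4 mouse 1 and 3.95 in vehicle mouse 5.

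The FPKM of all rows outside the 37 genes and their 7 copies summed to 262535 ± 13403 with rFGF4 and 260805 ± 27799.5 with vehicle (SD, n = 4 each). Scaled to that sum, the 13 protein genes had log2 fold changes of -0.72 to -0.40. Scaled to all rows outside the 37 genes they had -0.61 to -0.29, and with median-ratio scaling -0.81 to -0.49, all 13 below 0 each time.

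The other side of the same complexes is encoded in the nucleus, and 79 of these nuclear subunit genes were all tested. None passed the study's threshold or an adjusted p under 0.05 in limma. In total, 74 of 79 had a log2 fold change below 0, against 32.9% of all tested genes, with a median of -0.21 (-0.12 to -0.30 under the other scalings). Those below 0 numbered 65 (22.3% of all genes) when scaled to nuclear-encoded FPKM, and 75 (34.6%) with the copies left out of that sum. They numbered 78 (47.1% of all genes) with median-ratio scaling and 62 (47.8% of all genes) without rFGF4 mouse 1. At an unadjusted p under 0.05 there were 5, each lower (Ndufa1, Ndufa6, Ndufb6, Ndufs8 and Atp5j2, named after their values were seen), where 4.62% of all tested genes had such a p in either direction and 1.06% as lower. By complex, 36 of 37 genes were below 0 for complex I (median -0.22), 9 of 9 for complex III (-0.16), 11 of 12 for complex IV (-0.25) and 16 of 17 for complex V (-0.25). In complex II, which has no mitochondrial gene, 2 of 4 were (-0.02). The groups did not overlap for 6 genes (7.59%, background 3.33%), all lower with rFGF4. The summed FPKM of the 79 genes was 7804, 10297, 9828 and 11115 with rFGF4 and 11667, 11780, 11580 and 9291 with vehicle, lowest in rFGF4 mouse 1, and vehicle mouse 5 was below rFGF4 mice 2, 3 and 5.

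A subunit was followed for each complex, chosen by name, and in complexes I, III, IV and V it lay nearer 0 than the median of its list. Ndufs1 was the complex I gene above 0. Ndufs1, the largest iron-sulfur subunit of complex I, had 12.8, 25.7, 30.5 and 29.6 FPKM with rFGF4 and 30.4, 16.1, 29.4 and 18.3 with vehicle (log2 fold change 0.04, SE 0.32). Sdha, the succinate-oxidising subunit of complex II, had 106, 187, 209.6 and 208 FPKM against 202, 134, 199 and 134 with vehicle (0.06, SE 0.26). Uqcrc1 of complex III had 63.2, 94.4, 94.5 and 109 FPKM against 108, 88.6, 113 and 82.5 with vehicle (-0.13, SE 0.19). In all of these rFGF4 mouse 1 was lowest and the groups overlapped. Cox4i1 of complex IV had 237, 316, 274 and 357 FPKM against 316, 379.7, 321 and 253 with vehicle (-0.10, SE 0.19). Atp5a1, a catalytic-head subunit of ATP synthase, had 321, 510, 560.2 and 564 FPKM against 614, 428, 574 and 391 with vehicle (-0.05, SE 0.24).

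As a list, genes that make, cut and copy mitochondrial nucleic acids had a median fold change near that of all tested genes. Of 53 tested, 41 had a log2 fold change above 0 (67.1% of all tested genes did) and the median was 0.07, against 0.09 for all tested genes. With median-ratio scaling the median of the list was -0.01, against 0.01 for all genes, and 28 of the 53 were below 0 (47.1% of all genes). 1 gene passed the study's threshold (background 1.09% higher). That gene, Trit1, which modifies tRNAs, was higher with rFGF4 at 5.78, 6.35, 4.18 and 4.83 FPKM against 2.73, 2.01, 2.65 and 5.32 (log2 fold change 0.63, SE 0.24, limma p = 0.0276, exact permutation p = 0.0857, adjusted p = 0.918). Vehicle mouse 5 lay among the rFGF4 mice.

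In transcription, 5 of 10 genes were below 0. Polrmt, the mitochondrial RNA polymerase, had 5.88, 6.78, 6.32 and 6.59 FPKM with rFGF4 and 5.93, 6.58, 6.28 and 5.71 with vehicle (log2 fold change 0.05, SE 0.10). Tfam, which packages mitochondrial DNA and starts its transcription, had 8.48, 9.87, 10.3 and 10.7 FPKM against 11.1, 8.44, 10.0 and 7.69 with vehicle (0.08, SE 0.14). The groups overlapped for both. Tfb2m, the initiation factor that opens the promoter, had 10.9, 11.5, 12.3 and 11.8 FPKM against 10.0, 9.69, 10.7 and 10.5 with vehicle, without overlap, but with a log2 fold change of only 0.17 (SE 0.10, limma p = 0.121, exact permutation p = 0.0286).

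Among 30 RNA-processing genes, 25 were above 0. Lrpprc, which stabilises mitochondrial mRNA, had 7.83, 9.28, 11.9 and 11.0 FPKM with rFGF4 and 10.7, 8.44, 10.7 and 7.75 with vehicle (0.08, SE 0.16). Elac2, which cuts the 3′ ends of tRNAs out of the precursors, was named after its values were seen, as was Fastk. Elac2 had 8.58, 8.49, 7.99 and 8.32 FPKM with rFGF4 and 6.57, 6.07, 6.57 and 6.79 with vehicle, without overlap (log2 fold change 0.32, SE 0.10, limma p = 0.0101, exact permutation p = 0.0286, adjusted p = 0.918), below the fold of the study's threshold. Fastk, a kinase-family protein with a form in mitochondria that binds RNA, had 16.3, 12.8, 17.2 and 12.3 FPKM against 19.4, 17.9, 19.0 and 17.4 with vehicle. Its groups did not overlap either, in the other direction (log2 fold change -0.32, SE 0.13, limma p = 0.0404, exact permutation p = 0.0286). Of the 30 genes, 1 had its rFGF4 values all lower and 2 all higher, 10% in all (background 3.33%). Twnk, the replicative helicase, had 7.49, 7.00, 6.83 and 6.64 FPKM against 6.43, 5.81, 6.99 and 6.33 with vehicle (0.11, SE 0.10), and 11 of the 13 genes for mitochondrial DNA upkeep were above 0 (median 0.05).

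Of 9 regulators of mitochondrial biogenesis, 1 passed the study's threshold as higher (background 1.09%) and 5 were above 0 (67.1% of all tested genes). Ppargc1a, the coactivator best known for driving biogenesis, had 5.0, 7.48, 7.44 and 9.09 FPKM with rFGF4 and 9.92, 7.67, 8.72 and 6.70 with vehicle (-0.18, SE 0.19). Ppara, a nuclear receptor for fatty acid oxidation, was higher at 3.27, 7.86, 15.6 and 6.88 against 3.26, 0.991, 4.63 and 2.19 (log2 fold change 1.26, SE 0.45, limma p = 0.022, exact permutation p = 0.0571, adjusted p = 0.918). rFGF4 mouse 3 was highest for Ppara, and mouse 1 lay among the vehicle mice.

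Marker genes of the cells that make up a kidney also differed between mice. Of all tested genes, 32.9% lay below 0. The 12 proximal tubule markers were all tested, and 9 lay below 0 with a median of -0.37. The summed FPKM of the 12 was 1885, 4919, 8767 and 8478 with rFGF4 and 10423, 5258, 9515 and 5051 with vehicle. rFGF4 mouse 1 was lowest here as it was for mitochondrial share, and rFGF4 mouse 2 and vehicle mice 3 and 5 were low as well. Kap was the largest part of each of these sums, at 906, 1930, 4941 and 4997 FPKM with rFGF4 and 6717, 2946, 5434 and 2705 with vehicle. The 5 distal convoluted tubule markers (5 of 5 below 0, median -0.33) summed to 63.6 to 329.9 with rFGF4 and 183 to 350.1 with vehicle. The 5 thick ascending limb markers (3 of 5 below 0, median -0.24) summed to 977 to 1472 and 918 to 1344, and the 8 collecting duct markers (8 of 8 below 0, median -0.28) to 244 to 412 and 294 to 432. Umod made up most of the thick ascending limb sums, at 839 to 1213 FPKM with rFGF4 and 654 to 1033 with vehicle.

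Markers of cells other than tubule lay on either side of 0, while 67.1% of all tested genes lay above it. All 6 macrophage markers lay above 0 (median 0.43), at 1198, 428, 118 and 80.3 summed FPKM with rFGF4 and 43.3, 313, 55.3 and 1728 with vehicle, and rFGF4 mouse 1 and vehicle mouse 5 were the highest of each group. All 6 podocyte markers lay above 0 (median 0.28), at 68.3 to 106 and 48.5 to 91.7. Of these 6, Synpo, an actin-binding protein of podocyte foot processes, passed the study's threshold as higher (background 1.09%). It had 3.69, 5.73, 1.55 and 4.74 against 1.54, 1.05, 1.505 and 2.20 FPKM (log2 fold change 0.87, SE 0.30, limma p = 0.0195, exact permutation p = 0.0571). Stroma markers (5 of 6 above 0, median 0.42) had 41.8 to 146 with rFGF4 and 31.7 to 201 with vehicle, and endothelium markers (7 of 8 below 0, median -0.18) had 35.3 to 50.0 and 42.0 to 59.9.

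The 5 red cell markers lay below 0 (median -1.97), at 120.3 to 2657 with rFGF4 and 1139 to 4325 with vehicle. Lymphocyte markers (4 of 6 tested, 2 below 0, median 0.00) had 70.8 to 2724 and 24.1 to 22914, the latter highest in vehicle mouse 5, where Igkc alone had 22334 FPKM. In that mouse immunoglobulin and haemoglobin rows held 8.76% of the summed FPKM, against 0.124 to 1.26% in the other 7. Without those rows the difference in mitochondrial share was -6.80 points. Nuclear-retained RNA markers (3 of 5 tested, median 0.16) had 78.0 to 118 with rFGF4 and 77.6 to 111 with vehicle. No marker gene of any list was at the floor of the table in every library. The part of cell make-up in the mitochondrial result was not tested.

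**Figure D5:**
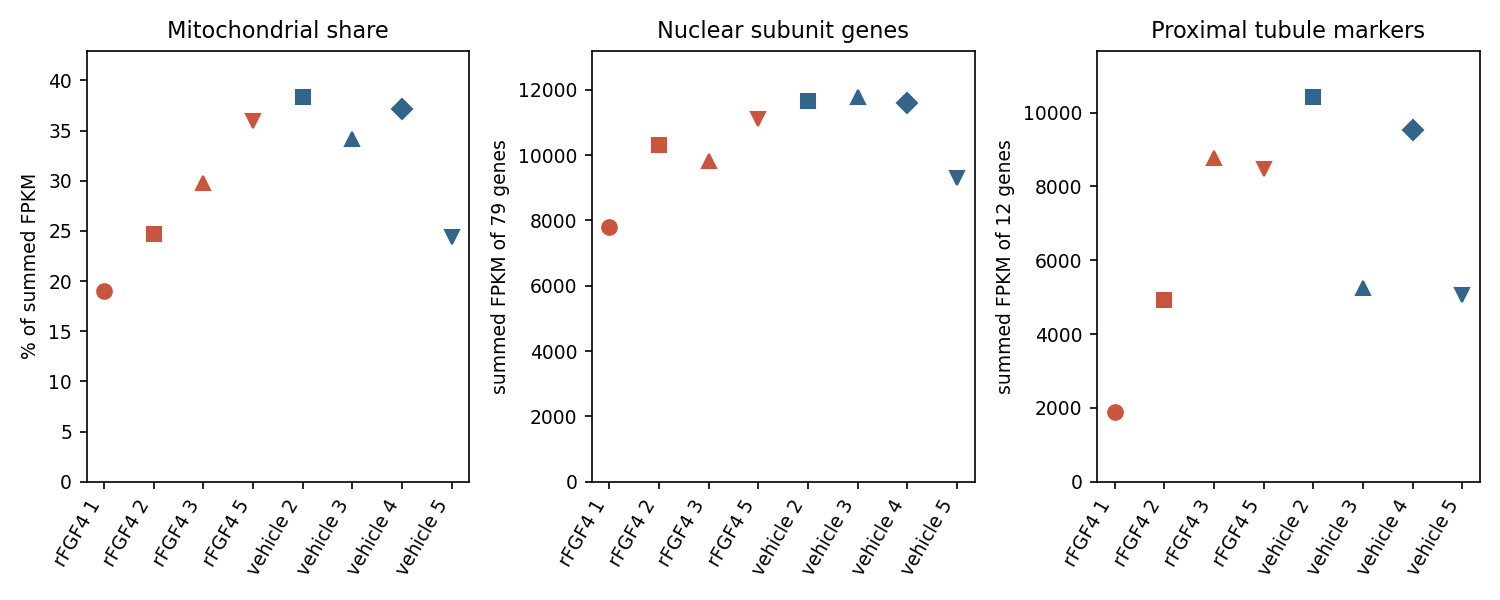
Mitochondrial share of summed FPKM (left, %), summed FPKM of 79 nuclear subunit genes (middle) and summed FPKM of 12 proximal tubule markers (right), 1 point per mouse, each y axis from 0. rFGF4 mice are red and vehicle mice blue. rFGF4 mouse 1 is lowest in all 3 panels, and vehicle mouse 5 is the lowest vehicle mouse in all 3. On the right, Kap is the largest part of each sum, and vehicle mice 3 and 5 lie close together.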

How the data were processed

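Kidney RNA for 8 libraries (4 rFGF4, 4 vehicle), taken as 1 per mouse, was poly(A)-selected and sequenced in pairs of reads by the study. The submitters' processing notes list Bowtie 0.12.2, HISAT2 2.0, StringTie 1.3.0 and the mouse build mm8, and the study's methods describe StringTie estimates with tests in edgeR. The authors deposited FPKM per gene and library, with columns of their own fold changes, p-values and q-values, which were not used. FPKM are not counts, so a count test was not run. Of 55401 rows, 55141 had an identifier in GENCODE M21 (GRCm38), from which positions and sequences were taken and which need not be the build the authors used. Read totals are not in the table. The ratios that low FPKM values shared most often put the libraries at 0.905 to 1.12 times the depth of vehicle mouse 2.

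Values were tested as log2(FPKM + 1) with limma 3.58.1 in R 4.3.3 (moderated test, trend in the prior variance, Benjamini-Hochberg adjustment over the 15150 genes with at least 0.5 FPKM in at least 4 libraries), without a block, beside two-sided exact permutation tests of single genes. The code was tested on simulated data. Tables and plots were made with Python 3.11.15, numpy 2.4.6, pandas 2.3.3 and matplotlib 3.10.9. Nuclear copies were found as transcripts with at least 80% of their 50-base words in a mitochondrial gene. Values per mouse are given for the 13 protein genes, both rRNAs, the 6 tRNA genes with the highest mean and those with an unadjusted p under 0.05. They are also given for Polrmt, Tfam, Tfb2m, Lrpprc, Twnk, Ppargc1a, Ndufs1, Sdha, Uqcrc1, Cox4i1, Atp5a1 and up to 2 genes past the threshold per list. The members and lists were chosen with earlier results of these data known. Alternatives were other scalings, a pseudocount of 0.1, no filter, a fold of 1.2, a replicate block, and each mouse left out.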

Additional observations from a re-analysis of the deposited data

Results flagged for a closer look

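In 9 of 112 groups of 4 mice, 1 mouse stood apart, by a gap to its nearest neighbour that, as a share of the group's range, exceeded Dixon's 95% limit. Genes were taken as log2(FPKM + 1) and the summed FPKM of a library as it stands. Chance flags about 1 in 20 such groups, which gives 5.6 here, and the mitochondrial genes are not independent of each other. In the vehicle group the mouse standing apart was mouse 5, at the low end, for mt-Co2 (0.877 of the range), mt-Atp6 (0.868), mt-Co3 (0.933), mt-Nd4 (0.891), mt-Th (0.876), mt-Cytb (0.855) and the summed FPKM of the whole library (0.840). In the rFGF4 group, mouse 2 stood apart at the high end for mt-Tv (0.953), at 0.809 FPKM against 0.03 or less in the other 3, and mouse 1 at the low end for Sdha (0.830). On the FPKM scale itself mt-Atp6 (0.739), mt-Th (0.809), mt-Cytb (0.820) and Sdha (0.779) did not pass the limit, and mt-Co2 (0.851), mt-Co3 (0.919), mt-Nd4 (0.865) and mt-Tv (0.965) did. mt-Tv was below the filter on low values.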

How the results depend on the processing

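The number of members past the study's threshold moved most. It was 3, and 1 to 7 with single mice left out: 1 without rFGF4 mouse 1 or 2 or vehicle mouse 2, 3 or 4, 7 without rFGF4 mouse 5 and 6 without vehicle mouse 5. With a replicate block it was 0. No label states whether the numbers pair the mice. Same-numbered mice correlated at -0.23, -0.16 and -0.39, which are too few values to decide it. Under the replicate block the median of the 13 protein genes was -0.31, 12 of 13 were below 0 and mt-Atp6 was at 0.44. Only numbers 2, 3 and 5 occur in both groups, so rFGF4 mouse 1 and vehicle mouse 4 did not enter that estimate. Without rFGF4 mouse 1 the median was -0.36 and 12 of 13 were below 0. Of all genes, 53.3% were below 0 under the block. The nuclear subunit genes past the threshold numbered 0, and 0 to 1 with single mice left out (1 without rFGF4 mouse 2). The median of the genes for mitochondrial RNA and DNA was 0.07, 0.1597 when scaled to nuclear FPKM and -0.0059 with median-ratio scaling. The median of all genes under these 2 scalings was 0.1612 and 0.0130. Over all genes, 165 were higher and 67 lower past the threshold. The counts were 279 and 43 when scaled to nuclear FPKM, and 163 and 62 with the copies left out of that sum. They were 107 and 80 with median-ratio scaling and 249 and 99 with a pseudocount of 0.1. Without rFGF4 mouse 5 they were 419 and 161, and without vehicle mouse 5 they were 336 and 98. No member's call changed direction. The scaling to FPKM outside the members and their copies, and the sums with copies, were chosen after seeing the data. The causes of these shifts were not tested. With 4 libraries a group and no read counts, the standard errors cover the spread between these libraries, and the counting error of low tRNA genes cannot be given.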

Other observations

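Mean levels of the 22 tRNA genes ran from 0.187 FPKM for mt-Ts2 to 1883 FPKM for mt-Te. The lowest were mt-Ts2, mt-Tv and mt-Tf (means of 0.187, 0.30 and 0.605 FPKM). mt-Tf and mt-Tv flank mt-Rnr1, the small-subunit rRNA gene, which had a mean of 544 FPKM. mt-Ts2 and mt-Tl2 share 1 base. They lie with mt-Th between mt-Nd4 and mt-Nd5, and their levels were low (mt-Th 3.54 FPKM, mt-Tl2 2.79 FPKM).

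The nuclear-encoded rRNA row of the cytosolic small subunit, CT010467, had 666, 1294, 1281 and 1093 FPKM in the rFGF4 mice and 568, 1102, 1098 and 935 FPKM in the vehicle mice. It was chosen after its values were seen. rFGF4 mouse 1 and vehicle mouse 2 were lowest, and these mice also had the lowest mt-Rnr1 (348 and 383 FPKM) and mt-Rnr2 (253 and 373 FPKM) of the 8.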
